A study of Mus musculus with 2 samples.

Results

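Mir132 and Mir212 are the genes of a pair of microRNA hairpins that are cut from 1 transcript, and they were measured in the newborn mouse cortex. They were found by their gene symbols in annotation GENCODE M21 and are 2 of the 2202 microRNA genes in the deposited count tables. Small RNAs of under 30 bases were sequenced from left cerebral cortex. The mice were B6CASTF1/J females aged 4 days. This strain is the first generation of a cross between a C57BL/6 and a castaneus parent, and no treatment or further genetic change is labelled. The data form 1 group of 2 libraries, replicate 2 and replicate 1, from separately numbered animals under the same donor record. There is thus no comparison between conditions, and no test between groups was possible.

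MicroRNAs are short RNAs that pair with messenger RNAs, mainly through a seed near their 5′ end, and lower the output of those messages. Mir132 and Mir212 are known from neurons, where the transcription factor CREB switches on their shared transcript after synaptic activity or neurotrophin signals. miR-132 is known to promote the growth and branching of dendrites, in part by repressing the GTPase-activating protein gene Arhgap32. In the visual cortex of rodents its level is known to follow visual experience.

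Both hairpins lie on the plus strand of chromosome 11 (mm10) in an intron of 1700016P03Rik, a noncoding transcript that spans 75172560 to 75177633. Mir212 (ENSMUSG00000065590.1) comes first, from 75173388 to 75173478, and Mir132 (ENSMUSG00000065537.2) follows from 75173682 to 75173747, so that 203 bases lie between them. The nearest genes on either side were the protein-coding Hic1 and Ovca2, both on the minus strand. The hairpins are printed here because each count is a sum over a whole hairpin, in which reads of both arms are added up. The sequences are from RefSeq on GRCm38.p6, run 5′ to 3′, and have the mature products in capitals, the 5p arm before the 3p arm.
Mir212: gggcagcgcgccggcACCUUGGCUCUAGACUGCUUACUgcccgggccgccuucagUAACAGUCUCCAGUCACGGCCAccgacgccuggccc
Mir132: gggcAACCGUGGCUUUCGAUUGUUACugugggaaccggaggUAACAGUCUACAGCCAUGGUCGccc
The Mir212 hairpin is 91 bases long with 69.2% G and C, and the Mir132 hairpin is 66 bases long with 57.6%.

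The mature products show what the genes share. In the lines below the seed, bases 2 to 8, is in capitals.
miR-132-3p: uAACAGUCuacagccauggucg
miR-212-3p: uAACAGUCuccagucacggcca
miR-132-5p: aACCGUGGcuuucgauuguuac
miR-212-5p: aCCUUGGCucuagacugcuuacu
The 3p products of both genes carry the seed AACAGUC, and no other of the 1738 mature mouse microRNAs in the RefSeq table has it. Their first 9 bases are identical, and 17 of 22 bases (77.3%) are the same over the full length. Counted from the 5′ end, the changes between miR-132-3p and miR-212-3p are A10C, C14U, U17C, U20C and G22A. The 5p products have different seeds, which no other listed mature microRNA carries. Outside the pair, the longest stretch that Mir132 shares with any of the other 2200 annotated hairpins, on either strand, is 11 bases. For Mir212 it is 12 bases, and between the members it is 10. Reads longer than these stretches are thus not shared among the annotated microRNA hairpins, while repeats elsewhere in the genome were not searched.

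**Figure D1:**
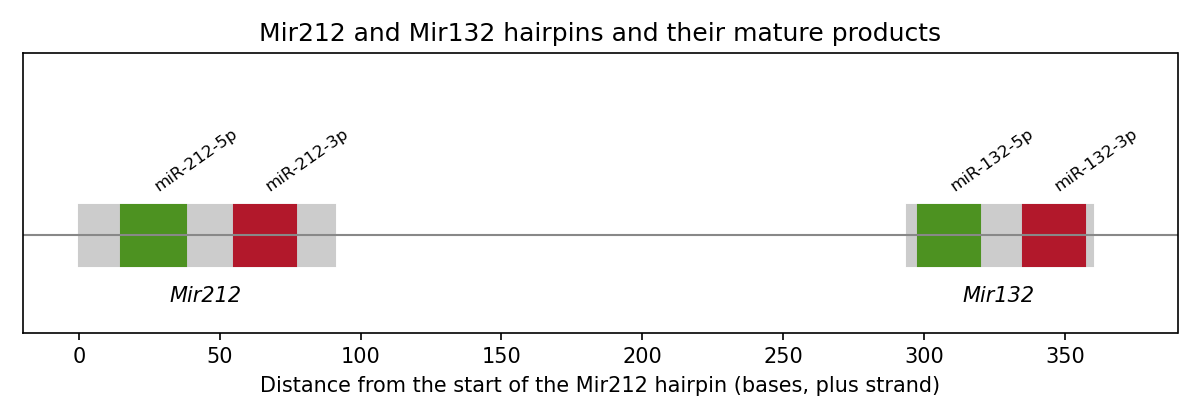
Map of the Mir212 and Mir132 hairpins (grey) by distance in bases from the start of Mir212, with the 5p products in green and the 3p products in red. A gap of 203 bases separates the hairpins.

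The libraries held 9938361 reads in replicate 2 and 11686912 in replicate 1, and microRNA genes took 27.8% of them in replicate 2 and 30.4% in replicate 1, on the annotated strand. Levels are given in CPM, counts scaled to a sum of 1000000 over the microRNA genes of a library, so that 1 CPM is worth 2.76 reads in replicate 2 and 3.56 in replicate 1. Of 15 listed neuron-enriched microRNA genes, 11 were at 2 CPM or more in both libraries, against 20.4% of all 2202 genes. The 15 genes summed to 68087 CPM in replicate 2, against 87874 CPM in replicate 1. The 4 that missed that level in at least 1 library were the Mir124a copies and Mir9-2, whose mature sequences occur at several places in the genome. The effect of these repeats was not tested, and the further copies Mir9-1 and Mir9-3 were detected. Microglia and leukocyte markers (4 of 4 genes detected) summed to 472 CPM in replicate 2, against 514 CPM in replicate 1. Oligodendrocyte markers (3 of 3) summed to 613 CPM in replicate 2, against 913 CPM in replicate 1. None of the marker genes listed for any cell type was at 0 in both libraries, against 1407 of all 2202 genes. Lists of other cell types also had most of their genes detected, so these counts do not test the labelled tissue.

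Mir132 was an abundant cortex microRNA, and Mir212 was present at a far lower level. Mir132 had 8015 counts, or 2903 CPM, in replicate 2 and 18740 counts, or 5271 CPM, in replicate 1. The level was higher in replicate 1, and the Wilson 95% intervals, 2840 to 2967 CPM in replicate 2 and 5196 to 5347 CPM in replicate 1, did not overlap. These intervals cover counting error only, since amplified reads are not independent molecules. Mir132 averaged 4087 ± 1674 CPM (SD, n = 2), which placed it 52nd of 2202 genes by mean level. Reads mapped to several places, 41.0% of replicate 2 and 45.8% of replicate 1, enter no gene. Genes with copies elsewhere can thus stand too low in this order. It stood at rank 63 in replicate 2 and at rank 43 in replicate 1.

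Mir212 had 194 counts, or 70.3 CPM, in replicate 2 and 280 counts, or 78.8 CPM, in replicate 1. Its libraries lay close together, with overlapping Wilson intervals of 61.0 to 80.9 CPM in replicate 2 and 70.1 to 88.5 CPM in replicate 1. Mir212 averaged 74.5 ± 6.00 CPM (SD, n = 2) and was the 238th gene by mean level, at rank 236 in replicate 2 and 234 in replicate 1. Both genes passed the detection level of 2 CPM in both libraries, as did 450 of all 2202 genes (20.4%). Among these 450 detected genes, Mir132 was higher than 88.4% and Mir212 higher than 47.1%.

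In the order of mean levels, Mir1983 stood just above Mir132 with 4109 ± 702 CPM, and Mir674 just below with 3902 ± 2035 CPM. Mir155, a microRNA of activated leukocytes, stood just above Mir212 with 76.1 ± 15.3 CPM, and mmu-mir-3535 just below with 71.9 ± 15.2 CPM. Each of these neighbours had a range over its 2 libraries that overlapped that of the member beside it. The order among them thus does not go beyond the difference between libraries.

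**Figure D2:**
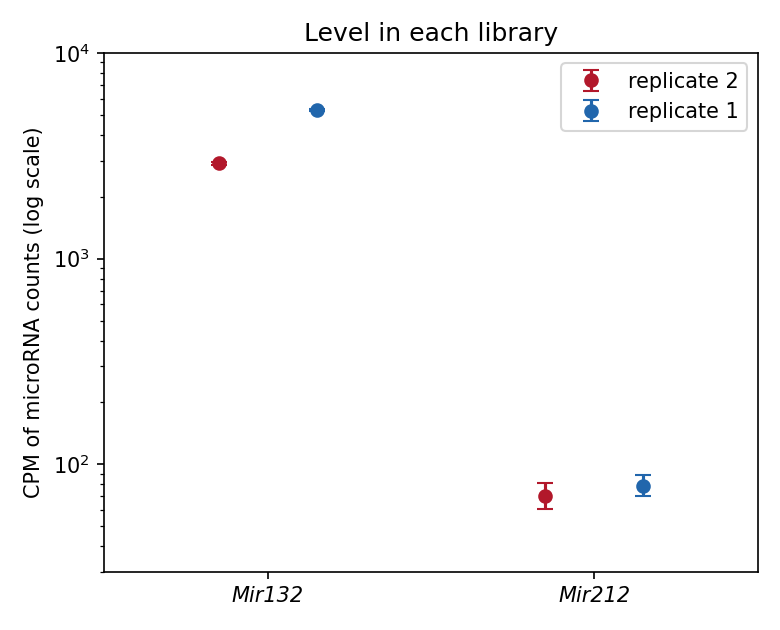
Level of Mir132 and Mir212 in replicate 2 (red) and replicate 1 (blue), in CPM on a log axis, with Wilson 95% intervals for counting error. The libraries are apart for Mir132, at 2903 CPM in replicate 2 and 5271 CPM in replicate 1, and overlap for Mir212, at 70.3 CPM in replicate 2 and 78.8 CPM in replicate 1.

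Nearly all reads of the pair came from the Mir132 hairpin. Of the 8209 reads of both genes in replicate 2, 97.6% (Wilson interval 97.3 to 97.9) were from Mir132, and of the 19020 in replicate 1, 98.5% (98.3 to 98.7). This amounts to 41.3 Mir132 reads for each Mir212 read in replicate 2 (exact interval 35.8 to 47.9) and 66.9 in replicate 1 (59.5 to 75.6). The ratio thus moved by a log2 value of -0.70 in replicate 2 over replicate 1 (exact conditional interval -0.97 to -0.42), or 1.62-fold, which needs no library scaling. The pair together held 2973 CPM in replicate 2, against 5350 CPM in replicate 1, and nearly all of that difference was in Mir132 reads. The counts do not separate the arms, so the part of the shared 3p seed in these sums is not known from them. They compare hairpins as sequenced, and unequal ligation or amplification of the mature products was not tested.

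The ratio between libraries, 1 from each animal, differed for the members. The log2 ratio of replicate 2 over replicate 1, after TMM scaling (a trimmed mean of log ratios over genes), was -0.84 for Mir132 (exact interval -0.88 to -0.80), so that it was 1.79-fold lower in replicate 2. For Mir212 it was -0.14 (-0.41 to 0.13), an interval that spans 0. Neither reached 2-fold. Over 308 genes whose counts in both libraries add up to at least 100, a difference of 2-fold or more was found for 16 with more in replicate 2 (5.19%) and for 34 with more in replicate 1 (11.0%). The median log2 ratio of these genes was -0.05, with quartiles of -0.43 and 0.28. Mir132 lay below the lower quartile, and 58 of the 308 genes (18.8%) had a larger ratio in either direction. Mir212 lay between the quartiles, and 241 genes (78.2%) had a larger one.

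**Figure D3:**
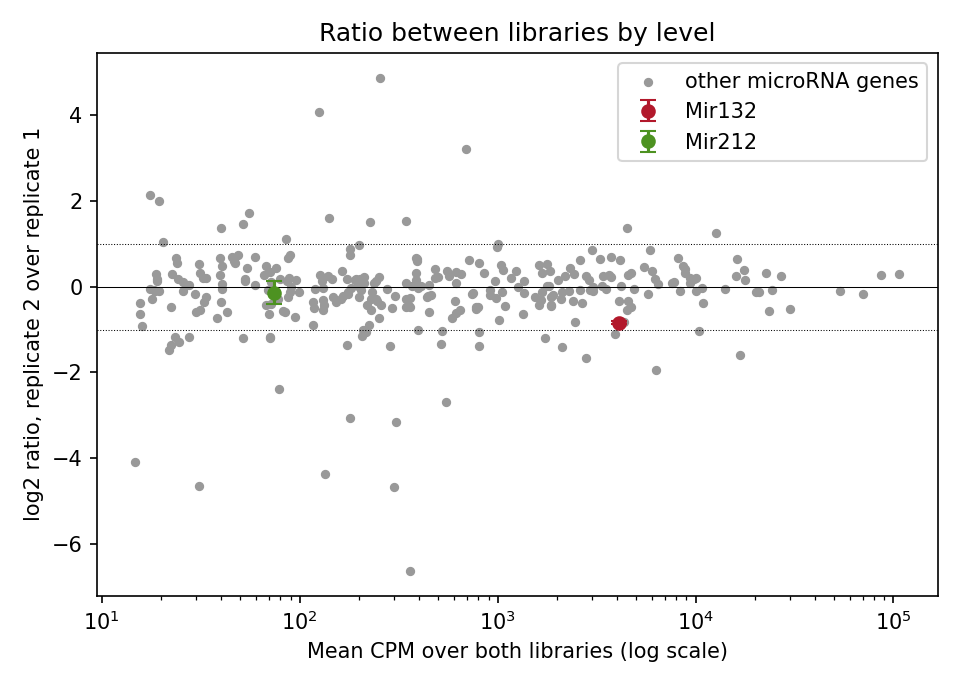
Log2 ratio of replicate 2 over replicate 1 against mean CPM (log axis) for 308 microRNA genes whose counts add up to at least 100. Bars on Mir132 (red) and Mir212 (green) are exact 95% counting intervals, and dotted lines mark 2-fold. Mir132 sits at -0.84 and Mir212 at -0.14.

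Marker microRNAs of other cell types also differed between the libraries. Epithelial microRNAs (5 genes, 4 of them at 2 CPM or more in both libraries) summed to 93.8 CPM in replicate 2, against 1930 CPM in replicate 1. Choroid plexus and ciliated cell microRNAs (4 of 4 detected) summed to 2788 CPM in replicate 2, against 5218 CPM in replicate 1. Red cell microRNAs (3 of 3 detected) summed to 550 CPM in replicate 2, against 60.2 CPM in replicate 1. Vascular microRNAs (3 of 3 detected) summed to 23815 CPM in replicate 2, against 16319 CPM in replicate 1. All genes of the epithelial and choroid plexus lists were lower in replicate 2. In the red cell list and in the vascular list, 1 gene each went against the sum. Mir486 of the red cell list had 30.4 CPM in replicate 2 and 36.8 CPM in replicate 1. Mir145a of the vascular list had 97.8 CPM in replicate 2 and 140 CPM in replicate 1. Mir132 and the epithelial and choroid plexus sums were thus all lower in replicate 2. So were the neuron, oligodendrocyte, and microglia and leukocyte sums given above, though genes of each of these lists went in both directions. In that order, the median log2 ratios of these lists were -0.21, -0.36 and 0.09, over genes with a summed count of at least 100. The part of these differences in the Mir132 ratio was not tested. In bulk tissue, fewer cells of a type and less RNA per cell cannot be told apart.

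Hairpins of 1 locus often differed in level, and Mir132 with Mir212 were among the more unequal pairs. There were 62 pairs of next neighbours that do not overlap, lie within 1000 bases of each other on the same strand and were both detected. The members differed by a log2 level of 5.71 on average over the libraries, the fifth largest of the 62 values. The median difference was 2.71, and the largest was 7.76, for Mir1197 and Mir323 in the imprinted Dlk1-Dio3 region. Mir99a with Mirlet7c-1 differed by 5.72, next to the members in that order, and Mir34c with Mir34b by 5.60. Mirlet7c-1 has a further copy, Mirlet7c-2, and can lose reads that mapped to several places. Without pairs in which a gene shares 22 bases with another hairpin, a choice made after seeing the data, the members ranked 3 of 46. The change of that difference between libraries lay nearer the middle of the order, with a size of 0.70 at rank 25 of 62 and a median of 0.49. Pairs of 1 cluster share genes and are not independent.

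**Figure D4:**
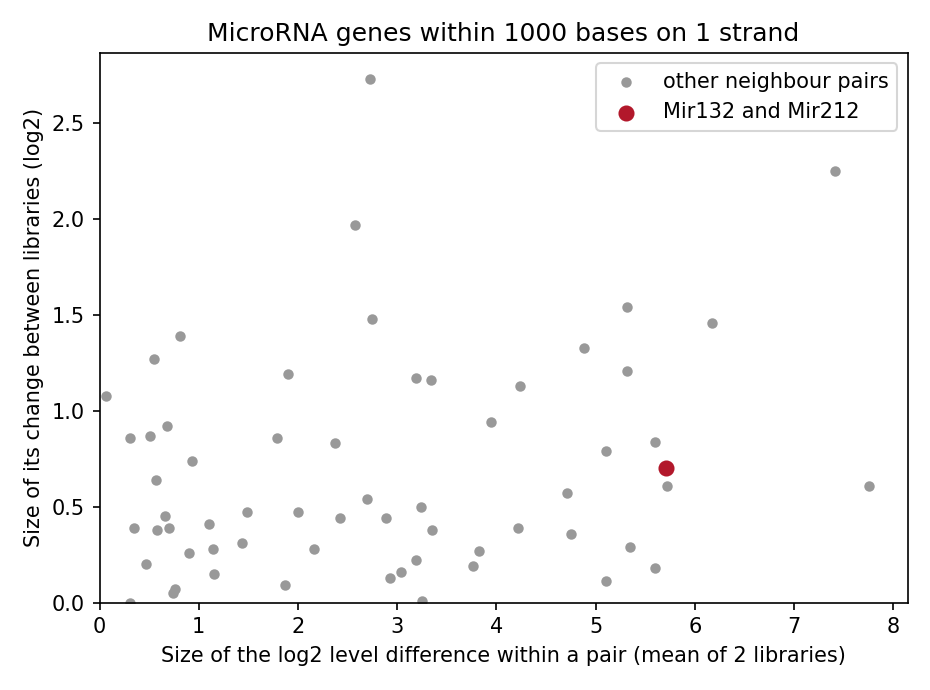
Size of the log2 level difference within each of 62 pairs of neighbouring microRNA genes against the size of its change between the libraries. Mir132 with Mir212 (red) lies at 5.71 and 0.70, to the right of most pairs, while its change has rank 25 of 62.

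A list of 12 other microRNAs linked to neuronal activity or synapses gives the members a scale, and 10 of these had mean levels between those of Mir132 and Mir212. The list shares Mir138-1, Mir138-2, Mir129-1 and Mir129-2 with the neuron list, and Mir219a-1 and Mir219a-2 with the oligodendrocyte list. All 12 were detected, against 20.4% of all 2202 genes, and their median level was 762 CPM, against 89.2 CPM over the 450 detected genes. Mir379, the first gene of an imprinted cluster induced by activity through MEF2, stood above Mir132 without overlap, with 6756 CPM in replicate 2 and 5326 CPM in replicate 1, which is just above the 5271 CPM of Mir132 there. Of the other 11, all with a lower mean than Mir132, 10 lay below it in both libraries without overlap. The exception was Mir138-1, a gene of the dendritic miR-138, with 3832 CPM in replicate 2 and 2155 CPM in replicate 1. Mir134, which limits dendritic spine size by repressing Limk1, had 2084 CPM in replicate 2 and 1456 CPM in replicate 1. Mir212 lay below 11 of the 12 without overlap and overlapped the last, Mir219a-1, which had 73.2 CPM in replicate 2 and 45.8 CPM in replicate 1. These levels are counts per hairpin, and members with copies elsewhere, such as Mir138-1 with Mir138-2, can lose reads that mapped to several places.

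The ratio between libraries took both directions in that list. The median log2 ratio of replicate 2 over replicate 1 was -0.08, against -0.05 over the 308 genes, and 0 of 12 genes reached 2-fold in either direction, against 5.19% of the 308 with more in replicate 2 and 11.0% with more in replicate 1. The ratio was above 0 for 5 of the 12 and below 0 for 7, against 146 and 162 of the 308, and among the 7 that of Mir485 rounds to 0. The 5 were Mir138-2 (0.93), Mir138-1 (0.85), Mir219a-1 (0.70), Mir134 (0.54) and Mir379 (0.37). Among those below 0, Mir329 (-0.90), Mir381 (-0.46) and Mir219a-2 (-0.36) lay farthest from it, so that the listed copies of Mir219a went in different directions.

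**Figure D5:**
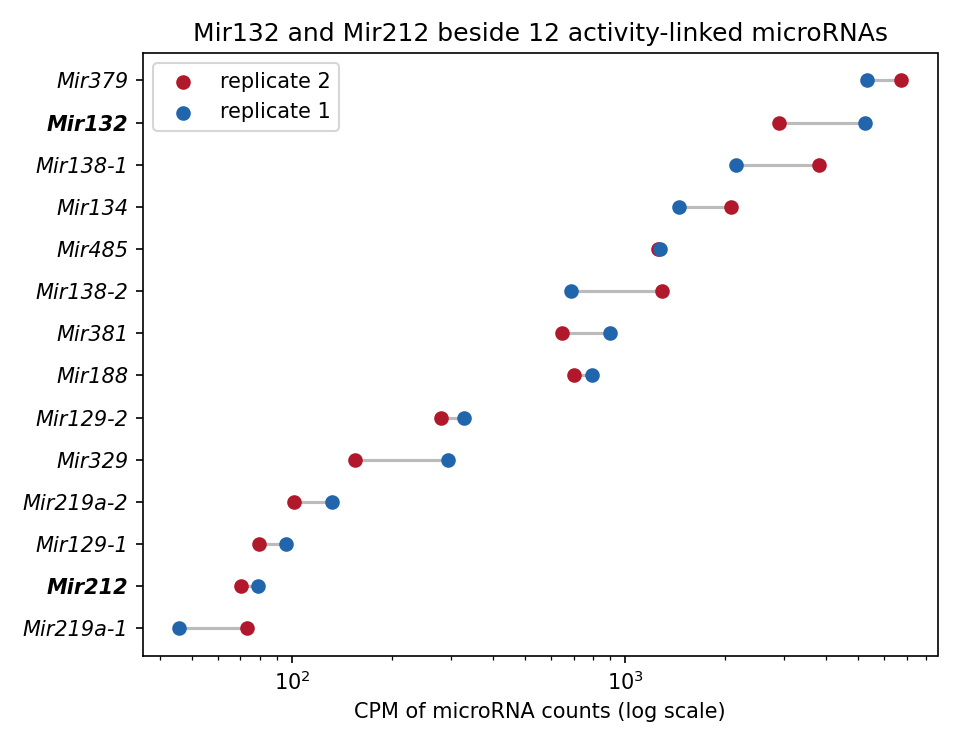
Level of Mir132, Mir212 and 12 activity-linked microRNAs in replicate 2 (red) and replicate 1 (blue), in CPM on a log axis, ordered by mean. Mir132 is second, below Mir379, and Mir212 is last but 1, above Mir219a-1.

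The genes nearest to each member over both libraries were found by the distance of log2(CPM + 1). For Mir132 the nearest was Mir128-2, a neuron-enriched microRNA gene, at a distance of 0.14, with 3127 CPM in replicate 2 and 5607 CPM in replicate 1. Mir128-2 has a further copy, Mir128-1, and can lose reads that mapped to several places. Next came Mir674 at 0.24 and Mir92b, a microRNA of neural progenitors, at 0.32. Their log2 ratios were -0.82, -1.09 and -0.55. For Mir212 the nearest were Mir148a at 0.13, Mir32 at 0.16 and Mir493 at 0.19, with log2 ratios of -0.28, -0.08 and 0.11. Since the distance uses both libraries, it fixes that these genes have levels and ratios near those of the member.

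Nearly all reads of the pair lay in the column read as annotated-strand counts. That reading rests on the layout and the values, so it gives no independent check of the strand. The opposite strand held 1 read of Mir132 in replicate 2 and 0 in replicate 1, and 0 reads of Mir212 in either library. Since 0 reads leave room for up to 3, the limit is 1.09 CPM in replicate 2, against 0.844 CPM in replicate 1.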

How the data were processed

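Each library has a table of raw read counts by microRNA gene, which the authors made on mm10 with GENCODE M21, per the file notes deposited beside it, without pooling. The aligner, counter and trimming are not given in the sources used here. The tables have no header, and the column read as annotated-strand counts rests on the layout and the values. Reads mapped to several places were 41.0% of replicate 2 and 45.8% of replicate 1, stand in a separate total and enter no gene.

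From these counts CPM over all microRNA genes were computed here. Ratios had 0.5 added to each count and TMM factors (edgeR 4.0.16) from genes whose counts add up to at least 20, a minimum chosen with earlier results known. Intervals are 95% Wilson or exact (scipy 1.17.1) and cover counting error. The ratio code was tested on simulated data. Genes named are the members, their nearest genes by distance of levels, genes sharing a seed, and list members. Genes next in rank and the neighbour pairs other than the members were picked after their values were seen. The members and lists were chosen with earlier results of these data known. A planned motif search in promoters was not run. Alternatives covered scaling, strand, added count, minimum level or count, neighbour distance and each library left out.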

Additional observations from a re-analysis of the deposited data

How the results depend on the processing

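Of 45 alternatives, 36 stayed close to the value reported, 9 moved and 0 changed direction. Close means within 1 SD between libraries for a level or share, within the counting interval for a member's ratio, and within 1.5 times for counts and percentages of genes or pairs. With 2 libraries, a member's level or share without 1 of them always lies within 1 SD of the mean. Genes detected in both libraries also stay detected when 1 is left out. Those alternatives thus could not move and say nothing on stability. With all reads rather than microRNA reads in the denominator, Mir132 averaged 1205 CPM and Mir212 averaged 21.7 CPM. The Mir132 log2 ratio was -0.79 with RLE factors and -0.88 with TMM factors over all genes, the last chosen after seeing the data, beside a reported value of -0.84. The Mir212 log2 ratio ranged from -0.18 to -0.09. With a minimum summed count of 20, 8.86% of genes were at least 2-fold higher in replicate 2. With no minimum it was 21.4%, and 18.1% in replicate 1. Among neighbours within 10000 bases the members stood in the top 12.8% of pairs by level difference, against 8.06% within 1000 bases.

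Leaving out a library gave Mir132 levels of 2903 to 5271 CPM, Mir212 levels of 70.3 to 78.8 CPM, a Mir132 share of 97.6% to 98.5%, and a median of the activity-linked list of 674 to 741 CPM. No paired analysis was possible because the labels give a single group. With 194 and 280 counts, Mir212 has wider counting intervals than Mir132, and 2 animals limit every statement on spread.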
